A study of Homo sapiens with 6 samples.

Results

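The genes described here are 52 genes of DNA damage signalling and DNA repair, taken by symbol from the platform annotation of an Illumina HT-12 bead array that was read on 6 samples. Of the 52 genes, 49 had a probe named here and 47 were tested, out of 11806 tested genes in all. BRCA2, FANCA and FANCD2 had no probe named here and were not analysed. All samples were Rh30 cells, a human line of alveolar rhabdomyosarcoma with the PAX3-FOXO1 fusion gene, and all RNA was taken 72 h after transfection. In the control group 3 samples received a scrambled control siRNA, and in the siP/CAF group 3 received an siRNA against P/CAF, the lysine acetyltransferase encoded by KAT2B. The cells are 1 line, and whether the arrays of a group stand for separate cultures is not stated in the labels. The p-values therefore reflect the spread between the arrays, and that spread may be technical.

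DNA breaks are sensed by kinases such as ATM and ATR, which act through checkpoint kinases to halt the cell cycle. Double-strand breaks are then rejoined by end joining or copied from the sister chromatid by homologous recombination, and crosslinks between strands are handled by the Fanconi anaemia proteins. Smaller lesions are removed by base excision, mismatch or nucleotide excision repair. Many recombination and Fanconi genes are transcribed mainly in S and G2 phase, whereas most excision repair genes are expressed throughout the cycle.

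The siRNA lowered its target. KAT2B fell by 2.77 on the log2 scale (limma with Benjamini-Hochberg adjustment, adjusted p = 1.91e-04), from 9.49 ± 0.36 to 6.72 ± 0.29 (SD, n = 3 per group). Between 20891 and 21421 of 47323 probes were detected per array. Of 10 muscle-lineage markers 9 were tested, and MYF6 was below detection on all arrays. The differences of 8 of the 9 lay below 0, with a median of -0.39 against -0.010 over all tested genes. MYOG, the myogenic factor of early differentiation, fell by 1.67 (limma, Benjamini-Hochberg adjusted p = 6.88e-04), and the other 8 did not pass. At an unadjusted p under 0.05, 4 of the 9 were lower, against 11.5% of all tested genes. Of 9 markers of other cell types with a probe, CD14 and PECAM1 were tested and the other 7 were detected on no array. PECAM1 fell by 0.59 (limma, Benjamini-Hochberg adjusted p = 0.0433), and CD14 measured 0.34 without overlap between groups (limma, Benjamini-Hochberg adjusted p = 0.332). The part of these markers in the values below was not tested. Control array 3 stood apart, with the median tested gene 0.071 above the mean of the control arrays and the median repair gene 0.13 above it. On siP/CAF array 3 the median repair gene was at -0.13 relative to that mean, and the median tested gene at -0.036. All levels below are background-corrected, quantile-normalised log2 signals, and all differences are siP/CAF minus control on that scale. In whole-culture RNA, fewer cells of a kind and less RNA per cell cannot be told apart.

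None of the 47 repair genes passed the test after siP/CAF, either as the gene's brightest probe or on any of their 76 tested probes (limma, a Benjamini-Hochberg adjusted p below 0.05). Over all tested genes the share that passed was 5.37%, with 2.28% higher and 3.09% lower. Without adjustment, 4 repair genes had a limma p under 0.05, which is 8.51% of them against 20.6% of all tested genes. Of these 4, 2 were higher and 2 lower, where 9.05% and 11.5% of all tested genes were. The groups did not overlap for 8 repair genes, or 17.0%, against 27.7% of all tested genes. Of the 47 differences, 17 lay above 0 and 30 below, with a median of -0.071, a lowest value of -0.46 and a highest of 0.86. The same median over all tested genes was -0.010. The median of the repair genes was -0.046 without control array 3 and -0.039 without siP/CAF array 3. Without both, in a fit with same-numbered arrays as a block, it was 0.023, and 22 of 46 genes lay below 0. In that fit the median over all tested genes was 0.020. With only control array 3 left out 26 of 47 genes lay below 0, and with only siP/CAF array 3 left out 27 did. The lean of the repair genes below 0 was thus smaller without either array and absent in the fit without both. The control and siP/CAF arrays kept in that fit also deviated in opposite directions, as given with the alternatives below. The cause of the lean was not tested. For 45 genes the difference was under 0.5 in size.

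**Figure D1:**
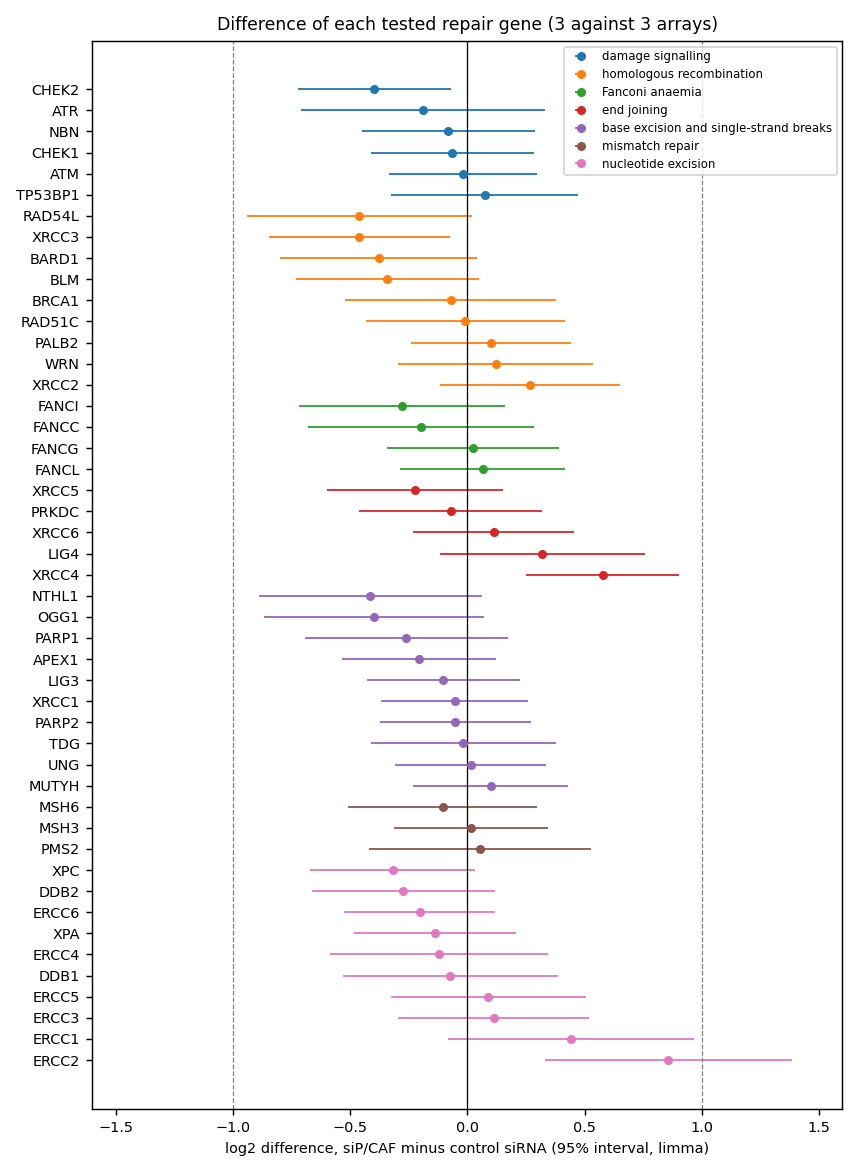
Log2 difference (siP/CAF minus control siRNA) of each tested repair gene on its brightest tested probe, with the unadjusted 95% interval from limma, 3 against 3 arrays. Colours mark the role groups and dashed lines a 2-fold change. The intervals of 46 genes lie within the dashed lines, and that of ERCC2 reaches 1.38. ATR is drawn although it was detected on only 1 siP/CAF array.

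How large a change the arrays leave room for is shown by the intervals of the differences. The unadjusted 95% interval lay within a 2-fold change in both directions for 46 of the 47 genes and within a 1.5-fold change for 28. The median half-width was 0.39. The missed threshold therefore does not show that these genes were alike in both groups, since the intervals of the other 19 reached past a 1.5-fold change.

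The 4 genes with an unadjusted p under 0.05 were XRCC4 and ERCC2, which lay above the controls, and CHEK2 and XRCC3, which lay below. Their promoters are printed here because these genes come nearest to a difference, from 250 bases before to 50 bases after the start (RefSeq, GRCh38.p14, 5′ to 3′ on the gene's strand). Capitals mark CCAAT boxes (CCAAT), GC boxes (GGGCGG) and the core of ETS factor sites (CCGGAAG), each on either strand. No base lay in more than 1 of these matches.
XRCC4, chr5:83077297-83077596, plus strand: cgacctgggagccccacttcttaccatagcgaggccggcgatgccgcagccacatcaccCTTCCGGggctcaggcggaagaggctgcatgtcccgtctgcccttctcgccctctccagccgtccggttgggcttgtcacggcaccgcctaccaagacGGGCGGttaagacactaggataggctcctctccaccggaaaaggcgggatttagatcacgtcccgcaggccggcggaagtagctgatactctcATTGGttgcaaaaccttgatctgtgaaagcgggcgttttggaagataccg
ERCC2, chr19:45370524-45370823, minus strand: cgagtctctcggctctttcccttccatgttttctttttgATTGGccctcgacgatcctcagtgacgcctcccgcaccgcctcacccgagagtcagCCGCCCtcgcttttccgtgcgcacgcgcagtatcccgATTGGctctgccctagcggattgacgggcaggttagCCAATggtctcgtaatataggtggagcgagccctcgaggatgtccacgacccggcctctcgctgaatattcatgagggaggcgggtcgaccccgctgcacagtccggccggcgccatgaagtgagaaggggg
CHEK2, chr22:28741771-28742070, minus strand: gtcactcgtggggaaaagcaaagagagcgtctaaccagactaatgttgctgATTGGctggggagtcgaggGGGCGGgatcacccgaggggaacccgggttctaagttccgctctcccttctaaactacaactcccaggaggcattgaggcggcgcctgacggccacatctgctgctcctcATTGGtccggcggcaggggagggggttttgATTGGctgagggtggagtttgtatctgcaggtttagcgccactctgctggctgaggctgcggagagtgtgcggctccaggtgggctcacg
XRCC3, chr14:103715402-103715701, minus strand: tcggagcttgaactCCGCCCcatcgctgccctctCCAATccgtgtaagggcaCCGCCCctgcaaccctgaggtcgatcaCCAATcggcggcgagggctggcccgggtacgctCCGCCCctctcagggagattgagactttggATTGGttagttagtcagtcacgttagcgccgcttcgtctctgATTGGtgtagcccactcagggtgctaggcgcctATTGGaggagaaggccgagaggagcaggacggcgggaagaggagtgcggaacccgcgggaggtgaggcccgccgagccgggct
The CCAAT box appeared 1 time in the XRCC4 promoter, 3 times each in those of ERCC2 and CHEK2 and 5 times in that of XRCC3. The XRCC4 match began at the start itself, while all those of ERCC2, CHEK2 and XRCC3 lay before the start. The ETS core was found in the XRCC4 window alone among the 4.

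Of the 52 genes, 47 had a promoter in the table, 42 of them tested. A CCAAT box was present in 44.7% of the 47 promoters and in 37.5% of those of 9474 tested genes. GC boxes were present in 74.5% and 69.2%, and the ETS core in 31.9% and 19.4%. E2F factors drive genes of the S phase, and 2 forms of their site, TTTGGCGC and TTTCCCGC, were searched on both strands. One of these stood in 7 repair promoters (14.9%), those of FANCC, FANCD2, MSH3, MSH6, XPC, XRCC2 and XRCC6, against 3.72% for all tested genes. The 47 promoters include untested genes. Over the 42 tested repair genes alone the shares were 47.6% (CCAAT), 73.8% (GC), 28.6% (ETS) and 14.3% (E2F). Overlap between motifs was not counted outside the 4 printed windows. Among tested repair genes, the 6 with an E2F match had a median difference of -0.045 and the 36 without one -0.059. The matches are a description of letters and not evidence of binding.

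Among the damage signalling genes, 6 were tested and 5 differences lay below 0, with a median of -0.072. CHEK2 encodes the checkpoint kinase that ATM activates at double-strand breaks. Its brightest probe read 9.15, 9.12 and 9.10 on the control arrays and 8.87, 8.62 and 8.69 after siP/CAF, a difference of -0.40 with an SE of 0.15 (limma, Benjamini-Hochberg adjusted p = 0.167). All siP/CAF arrays were below all controls, and the difference missed the threshold. A second CHEK2 probe read 9.27, 8.88 and 9.07 against 8.67, 8.62 and 8.53, also without overlap, and its difference was -0.47 (limma, Benjamini-Hochberg adjusted p = 0.135). CHEK1, the checkpoint kinase downstream of ATR, measured -0.063.

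ATM, the kinase that responds to double-strand breaks, measured -0.018 and on a second probe -0.17. ATR, the kinase that responds to single-stranded DNA at stalled forks, was close to background. Its brightest probe read 5.19, 5.71 and 5.21 on the control arrays and 4.92, 4.97 and 5.67 after siP/CAF, and was detected on 3 control arrays and 1 siP/CAF array. The ATR groups overlapped. Since ATR was tested through its control arrays and lay below detection on most siP/CAF arrays, no difference is printed for it. It is still drawn in the figures of all tested repair genes and counted in the totals and medians above. Without ATR, 4 of 5 signalling genes and 29 of 46 repair genes lay below 0, and 45 intervals lay within a 2-fold change. The medians were then -0.063 and -0.067. TP53BP1, which steers breaks towards end joining, measured 0.074. NBN, a subunit of the break-sensing MRN complex, measured -0.081 on its brightest probe and -0.40 on a dimmer one, whose groups did not overlap (limma, Benjamini-Hochberg adjusted p = 0.211). RAD50, another MRN subunit, was detected on no array, with uncorrected signals between 52.8 and 65.6.

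Homologous recombination genes were represented by 9 tested genes, of which 6 lay below 0, with a median of -0.072. XRCC3 encodes a protein that acts in the repair of double-strand breaks by homologous recombination. Its probe read 9.55, 9.67 and 10.04 on the control arrays and 9.30, 9.40 and 9.17 after siP/CAF. The groups did not overlap, and the difference of -0.46 (SE 0.17) missed the threshold (limma, Benjamini-Hochberg adjusted p = 0.176). RAD54L, the motor protein that remodels chromatin and DNA during strand exchange, read 9.33, 9.50 and 10.01 against 9.37, 9.24 and 8.85. Its difference was also -0.46, but siP/CAF array 1 lay among the controls (limma, Benjamini-Hochberg adjusted p = 0.284). It was -0.26 without control array 3 and -0.31 without siP/CAF array 3.

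BARD1, the partner of BRCA1 in its ubiquitin ligase, measured -0.38, and BLM, the helicase lost in Bloom syndrome, -0.34. The control range of BARD1 was 9.82 to 10.47 and its siP/CAF range 9.65 to 9.89. For each of XRCC3, RAD54L, BARD1 and BLM the highest value was on control array 3 and the lowest on siP/CAF array 3, as the plot by array shows. BRCA1 itself measured -0.072 on its brightest probe and 0.048 on another. PALB2, which bridges BRCA1 and BRCA2, measured 0.10, and the WRN helicase 0.12.

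XRCC2, which acts in the same pathway, measured 0.27 on its brightest probe and -0.026 on a dim one. RAD51C was read by 3 tested probes, at -0.0086, 0.27 and 0.32, and none passed. The probe at 0.27 was the 1 of these without overlap between groups.

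**Figure D2:**
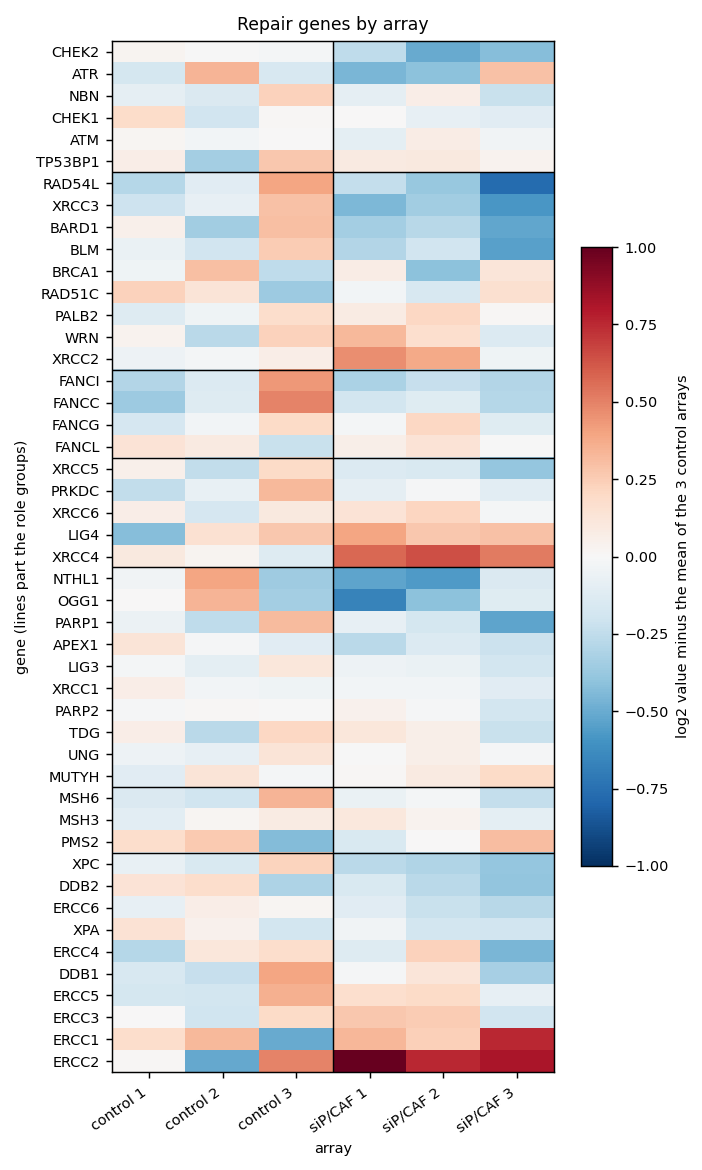
Normalised log2 value of each tested repair gene on each array, as the difference from the mean of the 3 control arrays; red is above that mean and blue below. Rows are grouped by role and ordered by difference within a role; XRCC4 and ERCC2 are red on all 3 siP/CAF arrays, and control array 3 is red for many recombination and Fanconi genes.

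Of the Fanconi anaemia genes, FANCI and FANCC had a high control array 3. FANCI, the partner of FANCD2 in the clamp that is ubiquitinated at crosslinks, read 9.95, 10.11 and 10.68 on the control arrays and 9.94, 10.02 and 9.95 after siP/CAF. The other 5 arrays lay between 9.94 and 10.11. The difference was -0.28 (limma, Benjamini-Hochberg adjusted p = 0.513). It was -0.064 without control array 3 and -0.43 without control array 1. FANCC, a subunit of the core ubiquitin ligase complex, had the same shape, at 7.72, 7.95 and 8.58 against 7.90, 7.96 and 7.79. The FANCC difference was -0.20, and without control array 3 it was 0.050 (limma, Benjamini-Hochberg adjusted p = 0.884, within a range of 0.438 to 0.914 over 16 alternatives), and without control array 1 it was -0.38. FANCG, also in the core complex, measured 0.024 and FANCL, its ubiquitin ligase subunit, 0.065.

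End joining was the role group with the highest median, 0.11 over 5 tested genes, of which 3 lay above 0. By array, the median deviation of these genes from the control mean was 0.054, -0.077 and 0.19 on the control arrays. After siP/CAF it was 0.14, 0.22 and -0.019, so the groups overlapped. XRCC4 encodes the scaffold that holds DNA ligase IV at broken ends. It read 7.78, 7.71 and 7.55 on the control arrays and 8.25, 8.32 and 8.20 after siP/CAF. Every siP/CAF array was above every control, by at least as much as the spread within either group. The difference was 0.58 with an SE of 0.15, or 1.49-fold, and narrowly missed the threshold (limma, Benjamini-Hochberg adjusted p = 0.0557). Under 8 of the 16 alternatives it passed, with adjusted p-values between 0.0171 and 0.233 over all 16, and under none of the 6 that left out 1 array.

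LIG4, the ligase that XRCC4 binds, read 5.50, 6.08 and 6.20 on the control arrays and 6.32, 6.20 and 6.22 after siP/CAF. Control array 1 was low and the difference of 0.32 missed the threshold (limma, Benjamini-Hochberg adjusted p = 0.435). Without that array it was 0.11. A dimmer LIG4 probe read 5.75, 5.27 and 5.65 against 6.45, 6.30 and 5.97. Here the groups did not overlap, and the difference was 0.68 (limma, Benjamini-Hochberg adjusted p = 0.0729). Both LIG4 probes lay near background, and a further LIG4 probe was detected on no array. The Ku subunits, which cap broken ends, measured -0.22 (XRCC5) and 0.11 (XRCC6). PRKDC, the catalytic subunit of the DNA-dependent kinase that Ku recruits, was read by 4 probes at -0.071, -0.011, -0.27 and -0.36.

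**Figure D3:**
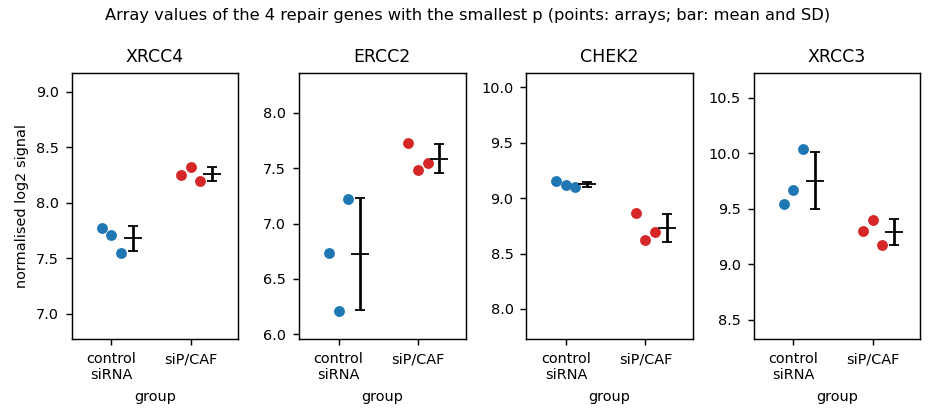
Normalised log2 signal on each array for XRCC4, ERCC2, CHEK2 and XRCC3, with the mean and SD of 3 arrays per group beside the points; each panel spans the same height. In all 4 genes the groups do not overlap, and the control values of ERCC2 spread from 6.22 to 7.22.

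In base excision and single-strand break repair, 8 of 10 differences lay below 0, with a median of -0.078. NTHL1, a glycosylase for oxidised pyrimidines, read 10.18, 10.61 and 9.86 on the control arrays and 9.69, 9.65 and 10.07 after siP/CAF. OGG1, the glycosylase for 8-oxoguanine, read 8.91, 9.25 and 8.57 against 8.25, 8.50 and 8.79. In both genes the groups overlapped through a low control array 3 and a high siP/CAF array 3. Their differences were -0.41 and -0.40 (limma, Benjamini-Hochberg adjusted p = 0.339 and 0.351). Without control array 2 they were -0.22 and -0.23. On a dimmer OGG1 probe the difference was -0.57 (limma, Benjamini-Hochberg adjusted p = 0.145).

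The glycosylases UNG, TDG and MUTYH measured 0.015, -0.017 and 0.10. APEX1, the endonuclease that cuts at sites without a base, measured -0.21, without overlap between groups. The break sensors PARP1 and PARP2 measured -0.26 and -0.052. XRCC1, the scaffold of single-strand break repair, measured -0.054 and its partner LIG3 -0.10. Apart from NTHL1 and OGG1, no gene of this role was more than 0.26 from 0 on its brightest probe.

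The mismatch repair genes were near 0. MSH6, which recognises single mispairs, measured -0.11, from 12.71 ± 0.30 to 12.61 ± 0.11 (SD, n = 3). MSH3, which recognises larger loops, read 14.67, 14.78 and 14.85 on the control arrays and 14.87, 14.81 and 14.67 after siP/CAF, a difference of 0.015. The uncorrected signals of this probe lay between 26233.9 and 30395, against array maxima between 37286.8 and 45338.4. A much dimmer MSH3 probe, with a control mean of 9.78, measured 0.10. PMS2, an endonuclease of the pathway, measured 0.054. Its probes may also read near-identical pseudogene copies.

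Nucleotide excision repair held the largest single difference. ERCC2 encodes the XPD helicase of transcription factor TFIIH, which opens the DNA around a bulky lesion. It read 6.74, 6.22 and 7.22 on the control arrays and 7.73, 7.48 and 7.54 after siP/CAF. The siP/CAF arrays were close together and all above the controls, which spread over a full log2 unit. The difference was 0.86 with an SE of 0.24, or 1.81-fold (limma, Benjamini-Hochberg adjusted p = 0.0721). ERCC2 was read by a single probe. Its uncorrected signals were 181, 116.2 and 222.4 on the control arrays, against array medians between 79.1 and 89.7. Its size varied with the handling of background. The difference was 0.60 without background correction or with the deposited series matrix, and 0.68 with an offset of 50. Without control array 3, the highest control, the difference was 1.10 and passed (limma, Benjamini-Hochberg adjusted p = 0.0178, within a range of 0.00674 to 0.226 over 16 alternatives).

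ERCC1, part of the nuclease that cuts on the 5′ side, measured 0.44 on its brightest probe and 0.22 and 0.42 on dimmer ones, and none passed. Its partner ERCC4 measured -0.12, and 0.10 on a dimmer probe. XPC, which detects lesions across the genome, read 9.91, 9.83 and 10.21 against 9.72, 9.68 and 9.60, without overlap. The XPC difference was -0.32 (limma, Benjamini-Hochberg adjusted p = 0.318), and -0.21 without control array 3. DDB2, the subunit that binds ultraviolet lesions, measured -0.27 and DDB1, its adaptor in a ubiquitin ligase, -0.072, with 0.24 and 0.28 on dimmer DDB1 probes.

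XPA, which verifies damage, measured -0.14, ERCC3, the other TFIIH helicase, 0.11, and ERCC5, which cuts on the 3′ side, 0.090. ERCC6, which starts repair at stalled polymerases, measured -0.20, and its groups did not overlap although its signal was near background. DDB2 and XPC are also known as p53-responsive genes. Of 21 tested genes of a p53-responsive list, 1 rose and none fell (limma), or 4.76% and 0% against 2.28% and 3.09% of all tested genes. At an unadjusted p under 0.05, 5 of the 21 (23.8%) differed against 20.6%, 3 higher and 2 lower, and the median was -0.013.

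MGMT, which removes alkyl groups from guanine directly and has no partner enzyme, was detected on no array. Its uncorrected signals were 74.2, 56.9 and 59.8 on control arrays and 69.1, 62.9 and 71.0 on siP/CAF arrays, against array medians between 79.1 and 89.7. No fold is given for it.

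Agreement between probes of a gene was limited. Of the 22 repair genes with 2 or more tested probes, 15 had all probes on the same side of 0. The largest gap between probes of a gene was 0.36, in LIG4. CHEK2, OGG1, ERCC1 and LIG4, which had some of the larger differences, had all tested probes on the same side. ERCC2 and XRCC4, with the largest differences, and XRCC3, RAD54L, NTHL1 and BARD1 were each read by a single tested probe.

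**Figure D4:**
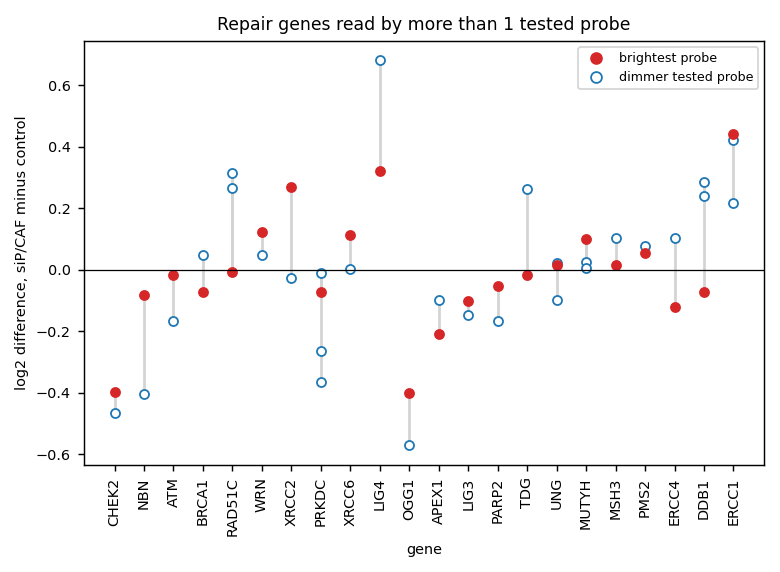
Log2 difference (siP/CAF minus control siRNA) on every tested probe of the 22 repair genes read by more than 1, with the brightest probe filled and dimmer probes open. The probes of DDB1, RAD51C and TDG straddle 0, while both CHEK2 and both OGG1 probes lie below it.

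A further 94 tested genes of DNA repair and damage signalling were set beside these. None passed on its brightest probe (limma), against 5.37% of all tested genes. At an unadjusted p under 0.05, 6 were higher and 8 lower, which is 14.9% of the list against 20.6% of all tested genes, and the median was -0.010. MAD2L2, a subunit of translesion polymerase zeta and of the shieldin complex, measured -0.67 (limma, Benjamini-Hochberg adjusted p = 0.0538). PARP3, an ADP-ribosyltransferase at double-strand breaks, measured 0.57 on its brightest probe (limma, Benjamini-Hochberg adjusted p = 0.0598). A dimmer PARP3 probe rose by 0.80, from 7.11, 7.05 and 6.70 to 7.54, 7.80 and 7.93 (limma, Benjamini-Hochberg adjusted p = 0.0325). SMC6, of the SMC5/6 complex, measured -0.53 and the chromatin protein HMGB1 -0.64, and neither passed. A dim probe of the helicase gene RECQL5, named after its values were seen, read 5.18, 4.90 and 4.95 against 5.75, 5.61 and 5.80. It was detected on 1 control and 3 siP/CAF arrays, so it entered the test through the group where it is high, and no difference is given for it. The brightest RECQL5 probe measured -0.23.

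Much of homologous recombination is expressed with the cell cycle, so replication and mitotic genes were described in the same way. Of 52 tested replication genes 3 fell and none rose, which is 5.77% lower against 3.09% of all tested genes. Of the 52, 38 (73.1%) lay below 0 against 51.7% of all tested genes, with a median of -0.14 against -0.010. By array, the median replication gene lay at -0.017, -0.088 and 0.15 from the control mean on the control arrays. After siP/CAF it lay at -0.16, -0.093 and -0.18, so control array 3 and siP/CAF array 3 were the extremes here too. The falls were of the histone chaperone subunit CHAF1A (-1.03), the transcription factor E2F2 (-0.98) and the flap endonuclease FEN1 (-0.61), which also serves base excision repair. Of 51 tested mitotic genes 1 (1.96%) fell, INCENP (-0.77), which belongs to the chromosomal passenger complex, and the median was -0.050. FEN1 and INCENP passed under none of the 6 alternatives that left out 1 array. The difference between the repair genes and these sets was not tested.

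**Figure D5:**
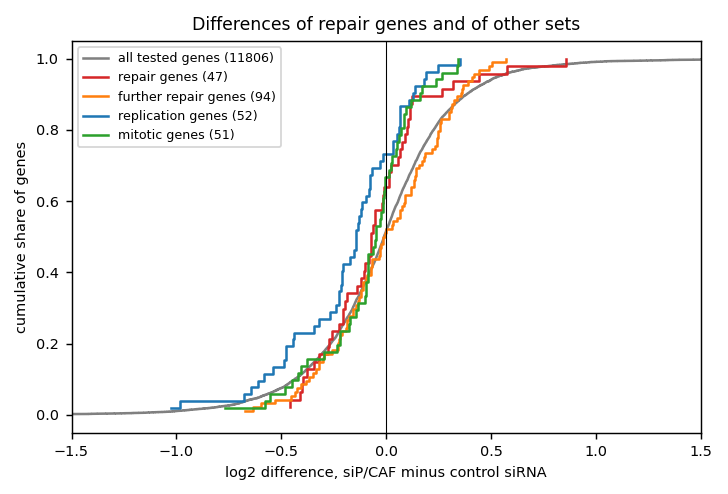
Cumulative share of genes by log2 difference (siP/CAF minus control siRNA) for all tested genes, the repair genes, the further repair genes, the replication genes and the mitotic genes, each gene on its brightest tested probe. The repair genes run from -0.46 to 0.86, and the replication curve lies furthest to the left, with a median of -0.14.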

How the data were processed

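Total RNA of 6 samples was amplified to biotinylated cRNA and read on Illumina HT-12 arrays of 1 colour, per the labels' protocols. The authors deposited an average bead signal per probe as intensity on a linear scale, non-normalized per the file headers. The deposited table also holds a score headed as a p value; because it rises with the signal, 1 minus this score was taken as the detection p. The deposited series matrix holds values that fit a log2 scale with a median of 0 for each probe (r between 0.933 and 0.970 with the signals, column medians 0); the sources used here do not give its normalization, and it served as an alternative.

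Signals were corrected by normexp from the detection p-values with an offset of 16, quantile normalised and log2 transformed (neqc steps of limma 3.58.1, R 4.3.3). A probe was tested where its detection p was under 0.05 on 3 or more of 6 arrays, which 21232 were. All 13 untested probes of the repair genes were detected on no array, and 46 of the 47 tested genes were detected on all 6. Probes were named from the platform annotation, where 30113 had 1 symbol, 8 several and 17202 none here. All 52 symbols matched the RefSeq gene table. A gene is represented by its brightest tested probe. Groups were compared by limma (lmFit, eBayes) on all 6 arrays without a block, with Benjamini-Hochberg adjustment over all tested probes at 0.05. The number of arrays limits the precision. The procedure was tested on simulated data.

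The members, role groups and lists (further repair, replication, mitotic, p53-responsive, muscle-lineage and other-cell markers) were chosen with earlier results of these data known. Genes named with full values are KAT2B, in each role the 2 with the smallest p, the members read by the brightest and dimmest probe, called genes of the replication and mitotic lists and the 4 further repair genes with the smallest p; other members are given by their difference.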

Additional observations from a re-analysis of the deposited data

How the results depend on the processing

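The 16 alternatives changed background correction, normalisation, detection filter, source table, array weights, choice of probe, or left out arrays. KAT2B kept its direction and call under all 16, between -2.91 and -2.26. The count of repair genes that passed as higher was 1 without background correction, with an offset of 50, with cyclic loess, with no detection filter, with detection on all 6 arrays, with the series matrix and with the mean of a gene's probes, in each case XRCC4. With array weights 2 were higher (XRCC4, ERCC2) and 2 lower (NTHL1, OGG1). Leaving out 1 array gave 0 or 1 higher (ERCC2, without control array 3) and 0 lower. The median difference was -0.15 with median scaling, where the median of all genes was -0.057, and -0.097 to -0.039 when 1 array was left out.

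Over all tested genes, array weights gave 846 higher and 902 lower, and leaving out 1 array gave 93 to 365 higher and 96 to 359 lower. Further repair genes that passed numbered 3 without background correction, with the offset of 50 or with the series matrix, 2 with detection on all 6 arrays, 11 with array weights, 1 with the mean of probes and 0 to 1 when 1 array was left out. Replication genes numbered 6, 6 and 6 under the first 3 of these, 8 with array weights and 1 to 3 when 1 array was left out. Mitotic genes numbered 3, 3 and 3, then 5 with array weights, and 0 with no detection filter, with the mean of probes and when any 1 array was left out.

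Titles number 2 arrays of each group alike, and the labels do not say that a number marks a shared batch. Deviations of same-numbered arrays from their group means correlated at -0.15 and -0.41, and those of the other pairs at -0.56 to 0.48. Control array 3 correlated at 0.28 and 0.44 with siP/CAF arrays 1 and 2, and at -0.56 with siP/CAF array 3. Control arrays 1 and 2 correlated at 0.24 and 0.48 with siP/CAF array 3, and below 0 with siP/CAF arrays 1 and 2. The numbers were therefore not taken as a pairing, and a batch shared under another pairing was not tested. With the replicate block over the 4 same-numbered arrays, 1 repair gene passed (ERCC2, 1.12), and 1 further repair gene and 0 mitotic genes passed. The median difference was 0.023, and 257 genes were higher and 259 lower. In that fit the effect of siP/CAF and the opposite deviations of its control and siP/CAF arrays cannot be told apart.

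Of 366 values of 23 other named genes under the alternatives, 301 kept direction and call, 32 gained a call, 19 lost it and 14 changed sign. The sign changes were in FANCC, MSH6, PMS2 and MSH3. With array weights FANCC measured 0.033, MSH6 0.043 and PMS2 -0.18, and with the replicate block 0.094, 0.13 and -0.29. With median scaling PMS2 measured -0.034, and with cyclic loess MSH3 measured -0.011. When 1 array was left out, FANCC lay between -0.38 and 0.050, MSH6 between -0.20 and 0.065, PMS2 between -0.16 and 0.19 and MSH3 between -0.038 and 0.075. The cause of these changes was not tested. Dim probes such as those of ATR, LIG4 and ERCC6 lie near background, where the signal limits what can be seen.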
